A study of Mus musculus with 7 samples.

Results

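The deposited list of *Tbx5*-dependent noncoding RNAs (ncRNAs) of the adult mouse left atrium held 12 loci with *Gata5* among their neighbouring genes, of 1489 loci in all. The list had been selected on the authors' test of knockout against control. By the paper, ncRNAs were also kept only if away from coding start sites. Its final counts by direction cover only ncRNAs in a wide window around a coding gene changed in the same direction. The 12 loci were chosen from the list by position alone, as the rows whose neighbour column, split on commas, contained *Gata5*. All 12 lay on chromosome 2, on the plus strand, in the interval that separates the start of *Gata5* from the start of the transporter gene *Slco4a1*. The name *Gata5* fits part of them: 4 loci had *Gata5* as the closest coding gene, and the other 8 had *Slco4a1*.

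Noncoding RNA had been sequenced from 4 *Tbx5* knockout libraries, labelled TBX5 -/-, and 3 control libraries, all from the left atrium of male mice of mixed strain aged 6 to 8 weeks. The paper gives the knockout as *Tbx5* fl/fl;R26 CreERt2 and the control as R26 CreERt2, so both groups carried the Cre, which is active in all tissues once tamoxifen is given, and a change need not arise in cardiomyocytes. The RNA was depleted of ribosomal and polyadenylated RNA and sequenced with its strand. The list gives positions and labels and no level per library, so no knockout against control value, depth, replicate spread or p-value can be given for a locus, and the markers of the tissue could not be checked. The direction of change was left unassigned, because the number of rows, which matches the study's ncRNAs that rise in the knockout, and a heading point to a rise, while other headings point to a fall.

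*Gata5* encodes a zinc finger transcription factor of the GATA family, which binds GATA motifs and acts with T-box and homeobox factors in heart development. In the mouse heart it is best known from the endocardium and the forming valves, and loss of the gene can give a bicuspid aortic valve. Many active enhancers are themselves transcribed, and *Tbx5*-dependent ncRNAs were sought as a mark of such elements. The interval upstream of *Gata5* also holds *Mir1a-1* and *Mir133a-2*, which encode the muscle microRNAs miR-1 and miR-133, known for repressing non-muscle and growth genes in cardiac and skeletal muscle.

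Promoter and microRNA sequences that frame the interval are shown as RefSeq gives them on GRCm38.p6, the assembly of the mm10 positions. No genome sequence was used here, so the 12 loci themselves are described by position only. The start sites of *Gata5* and *Slco4a1* bound the interval and point away from each other, and that of the antisense RNA *Gata5os*, on the strand of the loci, starts inside *Gata5*. Each promoter runs from 250 bases before the start site to 50 after it, 5′ to 3′ on the strand of its gene, and capitals mark a match on either strand to GGTGTG, the core of the T-box motif, or to AGATAA, one form of the motif that GATA factors bind. In the microRNA, capitals mark the seed, bases 2 to 8. The sequence given is that of mmu-miR-1a-1-5p, from the 5p arm of the *Mir1a-1* hairpin. The mature microRNA of the other arm is not shown, and these capitals do not give its seed.
*Gata5* promoter, chr2:180334630-180334929, minus strand: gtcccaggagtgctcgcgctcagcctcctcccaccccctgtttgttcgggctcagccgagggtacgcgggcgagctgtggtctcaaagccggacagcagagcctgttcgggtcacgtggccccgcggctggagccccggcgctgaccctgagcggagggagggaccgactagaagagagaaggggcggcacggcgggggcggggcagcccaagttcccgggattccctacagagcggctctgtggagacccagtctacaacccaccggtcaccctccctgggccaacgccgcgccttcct
*Gata5os* promoter, chr2:180332607-180332906, plus strand: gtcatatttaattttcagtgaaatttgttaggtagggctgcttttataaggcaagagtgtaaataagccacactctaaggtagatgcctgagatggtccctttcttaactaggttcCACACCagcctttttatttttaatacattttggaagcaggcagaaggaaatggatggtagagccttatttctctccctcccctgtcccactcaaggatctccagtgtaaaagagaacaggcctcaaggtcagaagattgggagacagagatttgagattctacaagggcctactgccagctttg
*Slco4a1* promoter, chr2:180455995-180456294, plus strand: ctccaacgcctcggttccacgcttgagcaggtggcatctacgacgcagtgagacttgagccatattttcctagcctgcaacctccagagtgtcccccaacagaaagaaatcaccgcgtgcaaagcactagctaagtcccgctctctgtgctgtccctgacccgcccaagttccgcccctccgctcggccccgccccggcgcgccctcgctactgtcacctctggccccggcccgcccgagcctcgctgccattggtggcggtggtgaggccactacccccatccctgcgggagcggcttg
mmu-miR-1a-1-5p, chr2:180389057-180389079, plus strand: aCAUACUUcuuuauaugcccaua

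The *Gata5* promoter held neither motif and had a GC content of 69.7%. The first *Slco4a1* promoter also held neither, at 65.3% GC. The *Gata5os* promoter was poorer in GC, at 42.7%, and held 1 match to the T-box core. GGTGTG was present on either strand in 6257 of 32851 RefSeq promoters of the same length (19.0%), and AGATAA in 3672 (11.2%). Among the 11 neighbour genes of the loci, 9 had promoter sequences, in 11 windows. The T-box core occurred in 3 of these windows, those of the second *Slco4a1* start, of *Ntsr1* and of *Mrgbp*, and the GATA motif in 0. A match is a run of letters and does not show binding.

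The 12 loci formed 2 blocks on chromosome 2 of mm10 when loci at most 10 kb apart were joined. The first block held 4 loci from 180347747 to 180368398 and began 13.0 kb upstream of the *Gata5* start site at 180334699. The second held 8 loci from 180417056 to 180432689, ended 23.6 kb before *Slco4a1* and was separated from the first by 48.7 kb. *Gata5* is on the minus strand, so that relative to it the 12 loci were upstream and in antisense. *Slco4a1* is on the plus strand, and relative to it they were upstream and in sense. The blocks covered similar amounts of sequence, 11.0 kb of a 20.7 kb span in the first and 10.8 kb of a 15.6 kb span in the second. Together they covered 18.0% of the 122 kb between the coding genes.

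**Figure D1:**
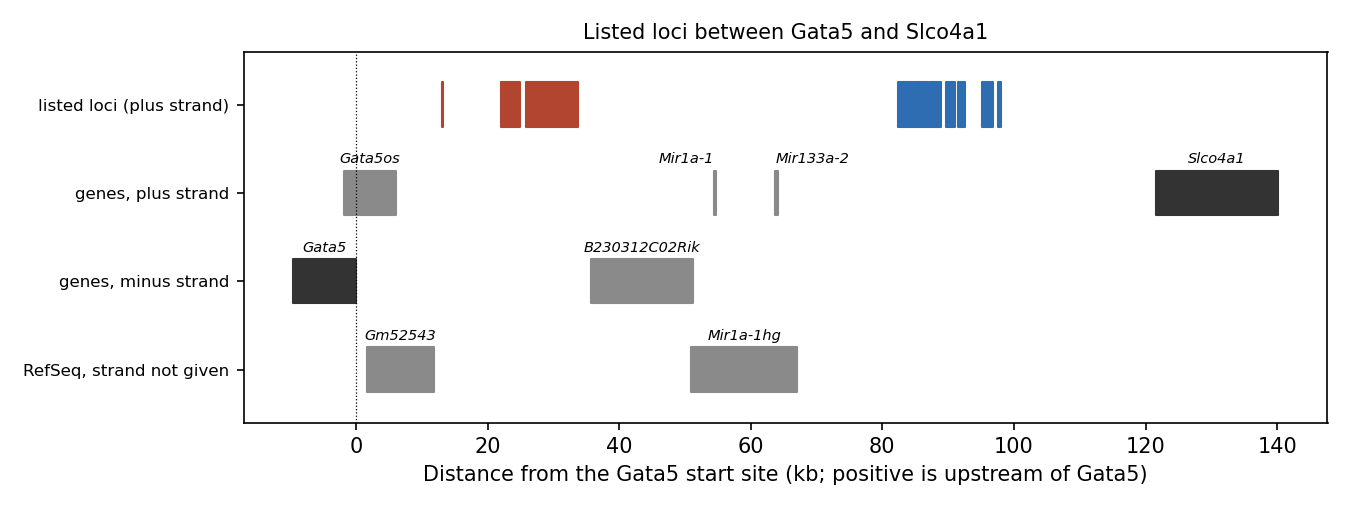
Map of the interval between *Gata5* and *Slco4a1*, with distance from the *Gata5* start site in kb on the x axis (positive is upstream of *Gata5*) and loci and genes on separate rows by strand. Bars span each feature, coding genes are dark, other genes grey, and the microRNA bars are drawn wider than scale. The 4 loci of the first block (red) and the 8 of the second (blue) lie on either side of *Mir1a-1* and *Mir133a-2*.

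In the first block the locus closest to *Gata5*, XLOC_031321, was a short one of 241 bp from 180347747 to 180347987. After a gap of 8777 bp came XLOC_031322, with 2909 bp from 180356765 to 180359673. XLOC_031324 followed with 4475 bp from 180360477 to 180364951 and XLOC_031325 with 3386 bp from 180365013 to 180368398. The last pair was separated by 61 bp, and XLOC_031324 was the longest of the 12 loci. The block thus held the shortest and the longest of the loci, and its median length was 3147.5 bp.

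The second block was a tight series of shorter loci. It opened with XLOC_031331, 2366 bp from 180417056 to 180419421, followed after 86 bp by XLOC_031332, 1194 bp from 180419508 to 180420701. XLOC_031333 covered 941 bp from 180420763 to 180421703, and XLOC_031334 covered 1798 bp from 180421814 to 180423611. These first 4 loci were separated by 61 to 110 bp and left little of the sequence between them uncovered. XLOC_031336 had 1312 bp from 180424387 to 180425698, and XLOC_031338 had 1204 bp from 180426124 to 180427327. The loci spread out toward *Slco4a1*, where XLOC_031341 had 1610 bp from 180429904 to 180431513. The last, XLOC_031342, was a 417 bp locus from 180432273 to 180432689. The median length in this block was 1258 bp.

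Of the 11 gaps between neighbouring loci, 8 were under 1 kb and 4 were under 120 bp, with a smallest gap of 61 bp that occurred in both blocks. Loci this close on a strand need not be separate transcripts, since the identifiers come from a de novo assembly of short reads, and the list gives no exon structure. The identifiers rise with position along the plus strand of chromosome 2. From the first to the last locus they run over 22 numbers, of which 10 are not in the list: 1 inside the first block, 5 between the blocks and 4 inside the second. What those numbers stand for was not analysed here. Positions in mm9 were lower than in mm10 by 265295 bp at each of the 12 loci, so lengths and gaps were the same in both assemblies.

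Lengths were high for the list. All 12 were above the median of all listed loci, 197 bp, and 9 reached 1 kb. Their median of 1461 bp (quartiles 1131 and 2502 bp) stood beside 194 bp (115 and 987 bp) for the other 1477 loci and 167 bp (117 and 332 bp) for the other 89 listed loci of chromosome 2. It was close to the 1280 bp (268.5 and 3016 bp) of the 262 loci in other same-strand runs of 8 or more. The 12 loci are neighbours in 1 interval and not independent, so these medians are given as a description with no test.

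Conservation scores lay around those of the rest of the list taken at all lengths. The phastCons score, averaged by the authors over the bases of a locus from 0 to 1, had a median of 0.0801 over the 12 loci and of 0.0756 over the 1252 other loci with a score, with 7 of the 12 above the median of the list. In the first block it was 0.167 at XLOC_031321, 0.112 at XLOC_031322, 0.0807 at XLOC_031324 and 0.0912 at XLOC_031325. The short locus closest to *Gata5* was thus the most conserved of the 12, at a percentile of 77.5 among scored loci. In the second block the scores were 0.0796, 0.0512, 0.109 and 0 at XLOC_031331, XLOC_031332, XLOC_031333 and XLOC_031334. They were 0.0192, 0.0922, 0.0276 and 0.0203 at XLOC_031336, XLOC_031338, XLOC_031341 and XLOC_031342. The medians of the blocks were 0.101 in the first and 0.0394 in the second, and their ranges overlapped. Other listed loci of 1 kb or longer had a median of 0.102 (quartiles 0.0652 and 0.144). The median of the 12 loci, of which 9 reached 1 kb, was below that value. The median of the second block was below the lower of these quartiles. Loci in other same-strand runs of 8 or more had a median of 0.0849. A score of exactly 0 was given to 20 loci of the list, and the number of scored bases behind it is unknown.

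**Figure D2:**
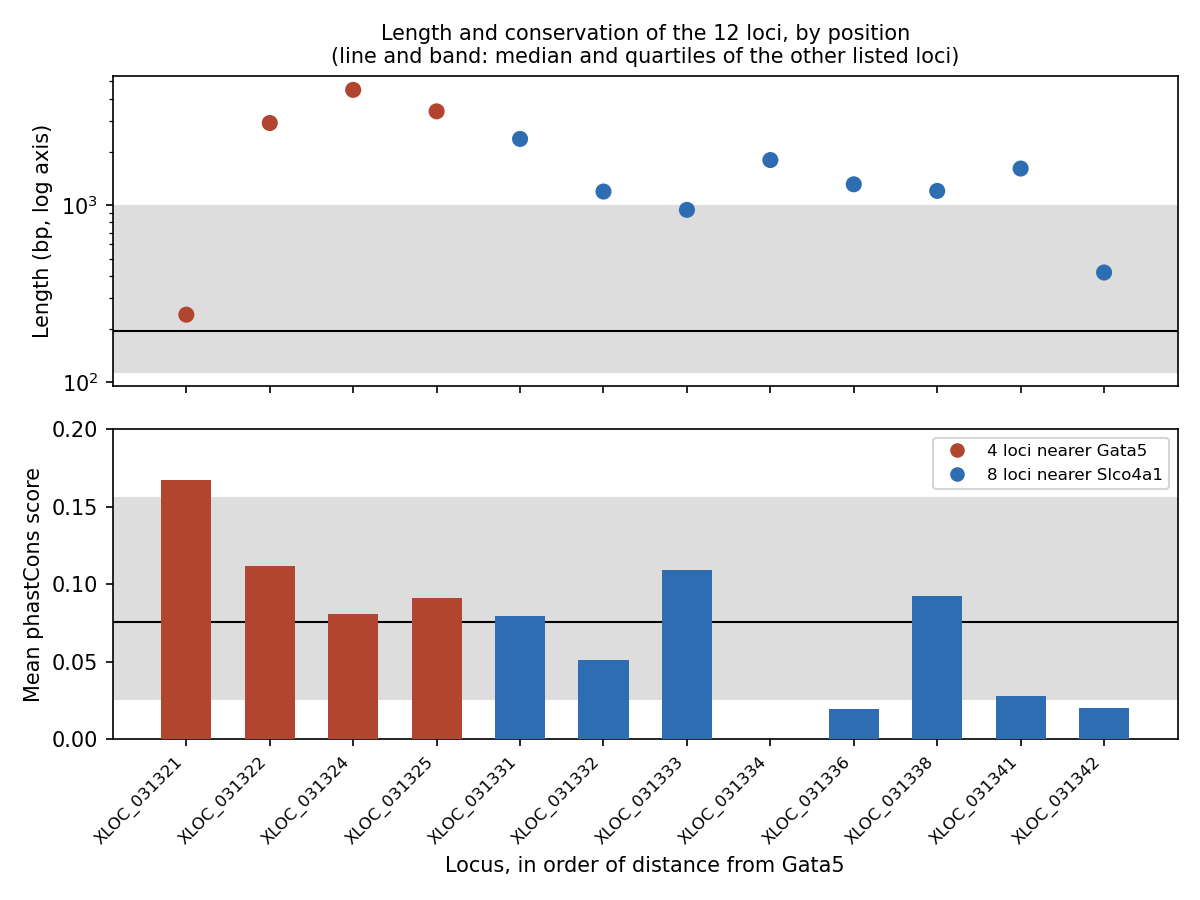
Length in bp on a log axis (top, points) and mean phastCons score (bottom, bars) of each of the 12 loci in order of distance from *Gata5*, with the first block in red and the second in blue. The line and band are the median and quartiles of the other listed loci, 194 bp (115 to 987 bp) and 0.0756 (0.0261 to 0.156). The upper panel shows that 9 loci are at or above 1 kb, whereas the scores lie around the line and XLOC_031334 is at 0.

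No annotated gene was given for any of the 12 loci, and 0 of them overlapped a gene of GENCODE M21 or of RefSeq on either strand. The closest annotation lay between and beside the blocks. *Gata5os*, an antisense RNA of 7.88 kb that starts inside *Gata5* on the plus strand, ended 7.01 kb before the first locus. The RefSeq lncRNA *Gm52543* ended 1.25 kb before it. The long noncoding RNA gene *B230312C02Rik*, on the minus strand, lay 2.09 kb past the end of the first block. The loci were therefore interleaved with annotated noncoding RNAs without touching one.

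The gap between the blocks held both microRNA genes. *Mir1a-1*, a 77 bp hairpin on the plus strand from 180389048 to 180389124, lay 20.6 kb past the first block. *Mir133a-2*, 104 bp from 180398379 to 180398482 on the same strand, lay 18.6 kb before the second. Their host transcript in RefSeq, *Mir1a-1hg*, spanned 16.2 kb from 180385604 to 180401802, 17.2 kb past the first block and 15.3 kb before the second. The nearest annotated microRNA was 18.6 to 41.1 kb from each of the 12 loci, and GENCODE gave *Mir133a-2* as the closest gene of any type for 6 loci of the second block. Such a gene lay within 50 kb of 12 of 12 of these loci and of 145 of the 1477 other listed loci (9.82%). The 12 loci lie around the same pair of microRNA genes, so they are not 12 separate observations. They were chosen by position in an interval that holds this pair, and the window exceeds their largest distance. The 12 of 12 therefore follows from the place of the interval and is no result about microRNA genes. Whether the loci are parts of the primary microRNA transcript cannot be told from a list of positions.

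**Figure D3:**
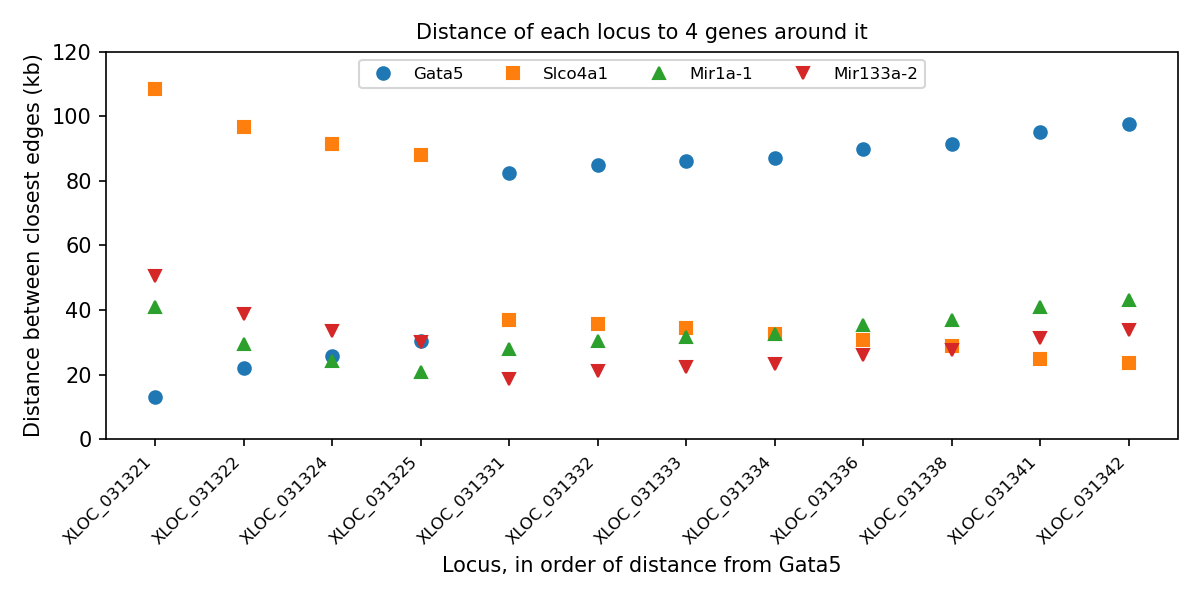
Distance in kb between the closest edges of each of the 12 loci (x axis, in order of distance from *Gata5*) and 4 genes around it. The distance to *Gata5* runs from 13.0 to 97.6 kb and that to *Slco4a1* from 108 to 23.6 kb, and the order of the 2 switches between XLOC_031325 and XLOC_031331.

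Besides *Gata5*, 10 genes were named in the neighbour column of the loci. For 12 of 12 loci the column equalled the set of coding genes of GENCODE M21 with a start site within 200 kb, so that the names follow from position. The rule was met well inside that window: the *Gata5* start site was 13.0 to 97.6 kb from the 12 loci. The next listed locus outside it, XLOC_031399, was 1548 kb from the *Gata5* start site on the far side of *Slco4a1*. In the other direction the nearest listed locus, on the minus strand, was 6.07 Mb from the first block. The 12 loci were therefore the only ones of the list in this region, on either strand, and none of the 11 neighbour genes was named by another listed locus.

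*Slco4a1*, which encodes an organic anion transporter, and *Ntsr1*, the receptor of the peptide neurotensin, were named by all 12 loci, at 23.6 to 108 kb and 67.3 to 152 kb from the start site. On the *Gata5* side, *Rbbp8nl*, *Cables2* and the ribosomal protein gene *Rps21* were also named by all 12, and the closest of them, *Rbbp8nl*, lay 57.9 to 142 kb away. *Lama5*, which encodes a laminin chain of basement membranes, was named by 9 loci, the 4 of the first block and 5 of the second. *Adrm1*, which encodes a ubiquitin receptor of the proteasome, was named by the 4 loci of the first block. *Mrgbp*, which encodes a subunit of a histone acetyltransferase complex, *Ogfr*, the opioid growth factor receptor gene, and *Col9a3*, which encodes a chain of collagen IX, were named by the 8 loci of the second block. The neighbours thus had varied functions, and *Gata5* was the only transcription factor of the cardiac list among them.

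No linked gene was given for any of the 12 loci, against 384 of the 1477 other loci (26.0%). The 12 loci share most of their neighbour genes and are not separate observations. A linked gene is one that the authors called changed in the left atrium in the heading's direction and near the locus. Neither *Gata5*, *Slco4a1* nor any other neighbour of these loci was linked to a locus anywhere in the list. This adds little, since no other listed locus had any of them in its neighbour column. The heading of this column reads as a fall, so it may cover genes of a single direction. The empty column does not show that these genes were unchanged in the knockout. Nor does it show that no changed gene lay near, since the paper's counts by direction required one in a wide window.

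The authors' bidirectional mark, meant for transcripts that run from each strand, stood at 12 of 12 loci, against 336 of the 1477 other loci (22.7%). The list nevertheless held 0 loci on the opposite strand within 1 kb of any of them, and the nearest minus-strand locus was 6.07 Mb away. Only *Tbx5*-dependent ncRNAs are listed, so an opposite-strand RNA that was unchanged in the knockout would be absent. Among loci that overlapped no coding gene, the mark went with the orientation of the flanking coding genes. It was set at 264 of 270 loci (97.8%) between a divergent pair, such as *Gata5* on the minus strand and *Slco4a1* on the plus strand, and at 44 of 1102 others (3.99%). Without the *Gata5* neighbours it was set at 252 of 258 loci between divergent genes (97.7%). The strand of the locus made little difference, with 125 of 128 minus-strand loci (97.7%) and 139 of 142 plus-strand loci (97.9%) marked between divergent genes. The mark was thus one that loci of either strand in such an interval nearly always carried, and it does not by itself show that a minus-strand RNA was present beside the 12 loci.

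**Figure D4:**
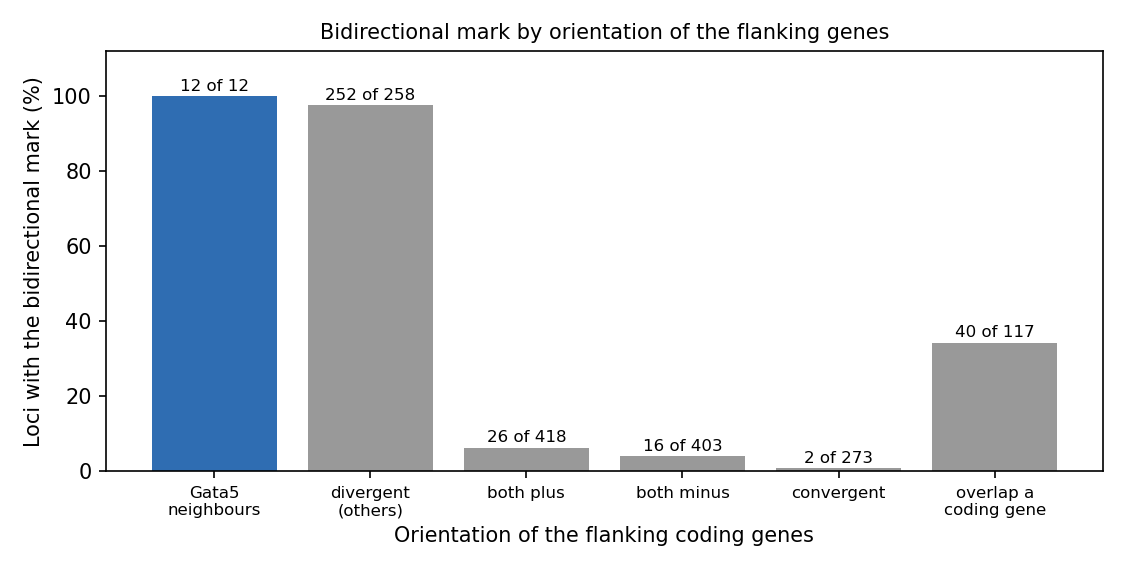
Percent of loci with the authors' bidirectional mark, by orientation of the flanking coding genes, with the number marked above each bar. The 12 *Gata5* neighbours (blue) and 252 of 258 other loci between divergent genes carry it, against 26 of 418, 16 of 403 and 2 of 273 loci between genes that are both plus, both minus or convergent, and 40 of 117 that overlap a coding gene.

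Set beside other long intervals, the one between *Gata5* and *Slco4a1* ranked 9 by number of listed loci among 748 intervals between coding genes that held any, and 29 by the share of its length covered. Loci that overlap a coding gene are outside these ranks. By number of marked loci it ranked 3 among such intervals, after those between *Acyp2* and *Psme4* (15 loci) and between *Sv2b* and *Akap13* (13 loci). A run over the coding gene *Creb5* held more marked loci, 16 of 16, with a median length of 3028.5 bp and 76.6% of its span covered. The second block between *Gata5* and *Slco4a1* was the smallest of the 14 same-strand runs of 8 or more loci, and 69.3% of its 15.6 kb was covered. The run between *Sv2b* and *Akap13* was covered to 79.9% with a median length of 1281 bp. By contrast the run between *Acyp2* and *Psme4* was covered to 32.5%, with a median length of 478 bp.

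Among the GATA genes *Gata5* was the 1 of 6 with a listed neighbouring locus. Of 28 genes of GATA factors, their cofactors and other cardiac transcription factors, 8 had any. The share of all coding genes with a listed locus was not computed, so this count has no background beside it. By the neighbour column, which is the rule that chose the loci, *Gata5* had 12, *Tead1*, a factor of the Hippo pathway, 6 and *Hand2*, a factor of ventricle and neural crest development, 5. Counting only loci with the gene as the closest coding gene, *Gata5* had 4, *Tead1* 1 and *Hand2* 4, so the order depends on that choice. Over the whole list, 22 of 3959 distinct neighbour genes were named by more loci than *Gata5*. *Irx5* had 2, and *Nkx2-5*, *Zfpm2*, *Hey1* and *Prrx1* had 1 each. *Tbx5* and *Tbx20* had 0. The 17 loci beside the 7 other genes had a median length of 286 bp and a median score of 0.0792, and 0 of the 17 carried the bidirectional mark. Since the mark went with the orientation of the flanking genes, which was not counted for these 17 loci, it does not set *Gata5* apart. *Tead1* loci were of a similar length to the *Gata5* neighbours, with a median of 1956.5 bp, and the closest was 2.00 kb from its gene, nearer than the 13.0 kb of the closest *Gata5* locus. The closest loci of *Irx5* and *Hand2* were also nearer to their genes, at 0 and 7.03 kb. These counts hold for this list only, since the *Tbx5*-dependent ncRNAs outside it were not analysed here.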

How the data were processed

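Total RNA of 4 *Tbx5* knockout and 3 control left atria was sequenced as directional single-end reads. Alignment to mm10 was with TopHat2, for which the processing notes of the submitters list 2.0.13 and 2.0.10. The authors then built transcripts with Cufflinks, counted with featureCounts, dropped coding genes and compared the genotypes with DESeq. Both deposited tables were identical and were used once. Of 1490 rows 1 was emptied for this work. The deposited phastCons value is a fraction from 0 to 1, averaged by the authors over the bases of a locus without unscored bases, and the positions and marks were used as deposited, with other entries of no fixed unit. The authors' column of linked genes comes from their own test and was used only for whether an entry was present.

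Positions are 1-based in mm10 and were compared with GENCODE M21 on GRCm38 and with RefSeq on GRCm38.p6. Python 3.11.15 and pandas 2.3.3 were used. Distances are between closest edges unless a start site is named. A block joined loci with gaps of up to 10 kb, and a run joined those on one strand. The divergent pairs are coding genes on the minus strand before a locus and on the plus strand after it. All loci of the rule, their neighbour genes and the fixed cardiac list were named or counted. Members and lists were chosen with earlier results of these data known, and other groups of loci are set beside them as descriptions with no test. Clustering and distances were tested on simulated data. The list holds no value per library, so the planned knockout against control test was not run.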

Additional observations from a re-analysis of the deposited data

How the results depend on the processing

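Over 11 results, 13 of 19 alternatives kept the value, read as a count within 1.5 times, a median within the range between the 3rd lowest and the 3rd highest locus, or a share within its Wilson interval. By closest listed neighbour, 4 loci belonged to *Gata5* instead of 12. The number of clusters was 4 at a 1 kb gap and 1 at a 50 kb gap, which follows from gaps of 2576, 8777 and 48657 bp. The span of each cluster in place of its loci gave a median of 18143 bp, and an opposite-strand locus within 1 kb in place of the authors' mark gave 0 loci. With 1 locus per gap between coding genes, 5.56% of loci outside divergent pairs carried the mark, and 95.8% of those inside. The comparison of the mark by gene orientation was not planned and was chosen after seeing the data, as were its alternatives. So were the alternatives on RefSeq overlap and on the closest coding gene of the cardiac list. The 6 alternatives on motifs inside the loci, the motif counts and the GC content were not run, since no genome sequence was used. No paired analysis was possible because the list has no value per library, and none by leaving out a replicate for the same reason.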

Other observations

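The bidirectional mark behaved as a property of an interval over the whole list. Of 165 same-strand runs of 2 or more loci, 1 held both marked and unmarked loci, and of 189 intervals between coding genes with 2 or more loci, 4 did. None of the 348 marked loci had a listed opposite-strand locus within 1 kb, though an opposite-strand RNA that was unchanged would not be listed. How the mark was set was not tested.

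Of the other muscle microRNAs looked at, *Mir206* and *Mir133b* had 1 listed locus within 200 kb, 119 and 115 kb away. *Mir208a*, *Mir208b* and *Mir499* had 0, with the closest listed locus at 2026, 1999 and 1208 kb. The *Mir1a-1* and *Mir133a-2* pair had 12 each, the *Gata5* neighbours. This list of microRNAs was chosen after the values of the *Gata5* loci were seen. It left out *Mir1a-2* and *Mir133a-1*, the other genes of miR-1 and miR-133a. Whether those have listed loci nearby was not tested.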
